A study of Danio rerio with 6 samples.

Results

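The genes egfra (ENSDARG00000013847), erbb2 (ENSDARG00000026294) and adam17a (ENSDARG00000043213) were followed through the PG-PV transition of the zebrafish ovary. These 3 genes were chosen by identifier among the 31540 Ensembl genes of the count table. The PV (pre-vitellogenic) follicle, the first stage of secondary growth, was compared with the PG (primary growth) follicle. Follicles of both stages came from wild type fish of the AB strain and were separated by size on sieves, without any treatment. The age of the fish was not given in the sources used here. Total RNA was extracted, and the study describes the sequencing as one of mRNAs. There were 6 libraries, 3 of PV and 3 of PG follicles. The ovaries of 3 fish were pooled for each library, and per the methods the same groups of fish gave the follicles of both stages.

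The receptors of the EGF family are transmembrane tyrosine kinases that pair with each other when an EGF-like ligand binds outside the cell. ErbB2 has no known ligand of its own in mammals and serves as a partner of the other receptors. Many of the ligands are made as membrane-anchored precursors, and the metalloprotease ADAM17 cuts them off the cell surface, and so helps to set how much soluble ligand is released. In the zebrafish ovary, earlier work placed the EGF-family ligands largely in the oocyte and the receptor Egfr in the surrounding follicle cells. This arrangement describes a signal from the oocyte to its follicle cells.

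The libraries held between 15412764 and 24603033 counts in PV follicles and between 14492086 and 36603108 counts in PG follicles. A floor of 3 counts corresponded to at most 2.07e-05% of a library, and this limit covers counting error only. Markers of follicle cells and oocytes were detected in every library. The normalized counts of 12 follicle cell marker genes summed to between 2128 and 2546 in PV libraries and between 101 and 208 in PG libraries. PG replicate 3 had the lowest follicle cell marker sum, and 6 of the 12 markers were at 0, among them fshr and amh. It also held the fewest counts of all libraries. PG replicates 1 and 2 each had 2 markers at 0, with amh at 0 in replicate 2 as well. In these replicates fshr had only 5 and 4 counts. Of the markers at 0 in PG replicate 3, the highest there was NR5A1 (ENSDARG00000103176), with 29 and 13 counts. PV replicate 2, with 15412764 counts in all, had 1 marker at 0. The part of depth in the zeros was not tested. All 9 follicle cell markers that could be tested were called higher in PV follicles. The study had already reported several of them, such as fshr, cyp19a1a, amh, inha and notch3, as higher in PV in these same data. That count was therefore largely fixed in advance. Among 14 tested oocyte markers, 5 were called lower and none higher by edgeR, and the sum of the whole oocyte list of 15 genes lay between 78690 and 82850 in PV libraries and between 158600 and 166000 in PG libraries. The most abundant of them, buc, zar1 and zar1l, weighed most in this sum and were all called lower. The median log2 fold change of the list was -0.95, but it was 0.04 for dazl, -0.05 for gdf9 and 0.29 for ddx4. Over all tested genes, 13.2% were called higher and 5.97% lower, shares to be set beside each count of called markers. Of the marker genes of other cells, 3 of 5 tested endothelial genes were called higher. Of 8 tested blood and leukocyte genes, 2 were called lower (the hemoglobin genes hbaa1 and hbba1). Neither of the 2 tested genes of the theca and interstitial list was called. These 2 genes, cyp11a1 and cyp17a1, were lower in PV but below the threshold in size, at log2 fold changes of -0.73 and -0.91 (edgeR quasi-likelihood adjusted p = 5.45e-07 and 5.52e-08). In the same list cyp11c1 was at 0 counts in all 6 libraries, and star and insl3 were too low to test. The gene star had 22 counts over the PV and 8 over the PG libraries, and insl3 had 2 and 15. The list therefore does not show a change of theca or interstitial cells, and which cells gave the counts of cyp11a1 and cyp17a1 was not tested.

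All 3 genes were expressed at higher levels in PV follicles, with fold changes of 7.57 for egfra, 5.12 for erbb2 and 2.103 for adam17a. For each of them the 3 PV values lay above the 3 PG values. The share of all tested genes that separate in this way was not counted. Genes that were not called, such as plcg1 and hbegfa described below, separated in the same way. The separation therefore does not set egfra, erbb2 and adam17a apart. All 3 passed the thresholds for differentially expressed genes, which asked for an adjusted p up to 0.05 and a change of 1 or more on the log2 scale in either direction (edgeR quasi-likelihood test). Of all 15899 genes tested, 13.2% were called higher in PV follicles and 5.97% lower, 19.2% in either direction, and the median log2 fold change was 0.03. Scaling by library totals moved that median to 0.45 and the share of calls that were higher to 89.8%, against 68.9% with TMM scaling. Scaling by the counts of the oocyte markers, in which the falling genes buc, zar1 and zar1l weigh most, moved them to 1.03 and 98.1%. In whole follicles, more cells of a type and more RNA per cell cannot be told apart.

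**Figure D1:**
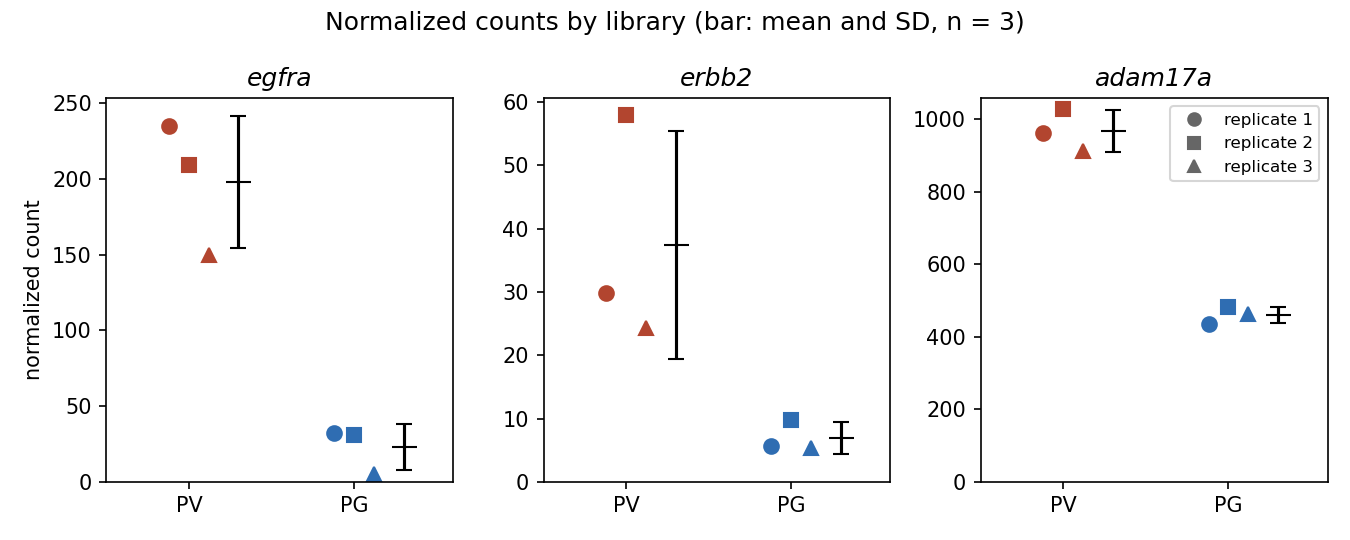
Normalized counts (raw counts divided by the DESeq2 size factor of the library) of egfra, erbb2 and adam17a in the 3 PV and 3 PG libraries, each point a library and each bar the mean with its SD (n = 3). The PV points lie above the PG points in each panel, and egfra is lowest in PG replicate 3 at 5.42 normalized counts. Normalized counts are not corrected for gene length, so the panels do not rank the genes against each other.

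The receptor gene egfra encodes a zebrafish EGF receptor, which binds EGF, TGFα and related ligands. It had 235, 209 and 150 normalized counts in PV replicates 1, 2 and 3, against 32.4, 31.1 and 5.42 in PG replicates 1, 2 and 3. The levels therefore did not overlap, and the lowest PV library was well above the highest PG library. The means were 198 ± 43.7 in PV and 23.0 ± 15.2 in PG follicles (SD, n = 3 each). The log2 fold change was 2.92 with a standard error (SE) of 0.35 and a 95% interval of 2.15 to 3.69 (edgeR quasi-likelihood test, adjusted p = 4.18e-05 by the Benjamini-Hochberg method over all tested genes). This fold change was larger than that of 97.8% of the tested genes.

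Among the PG libraries egfra was uneven. PG replicate 3 held 3 raw counts of egfra, or 0.207 CPM (counts scaled to the library total), with an exact (Clopper-Pearson) 95% interval of 0.0427 to 0.605. PG replicates 1 and 2 held 46 and 35 counts, or 1.26 CPM (interval 0.92 to 1.68) and 1.21 CPM (0.839 to 1.68). The interval of replicate 3 did not reach those of the other PG libraries. These intervals treat each count as an independent read, which counts converted from the coverage of read pairs need not be, so they may be too narrow. PG replicate 3 had 0.171 times the mean normalized count of the other PG libraries for egfra, while its follicle cell marker sum was 0.489 times theirs. Without this library the log2 fold change of egfra was 2.62 (edgeR quasi-likelihood test, adjusted p = 1.46e-05), and it was 2.25 for erbb2 and 1.07 for adam17a.

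The gene erbb2 encodes the receptor that acts as a dimer partner. Its raw counts were 38, 46 and 28 in PV replicates 1, 2 and 3, against 8, 11 and 3 in PG replicates 1, 2 and 3. After normalization these were 29.8, 58.0 and 24.4 in PV and 5.63, 9.77 and 5.42 in PG libraries. The stages were separated, and PV replicate 2 was well above the other PV libraries. The means were 37.4 ± 18.0 in PV and 6.94 ± 2.46 in PG follicles (SD, n = 3 each). The log2 fold change was 2.36 with a standard error of 0.52 and a 95% interval of 1.21 to 3.50 (edgeR quasi-likelihood test, adjusted p = 0.00245). The ratio of the summed counts, 112 in PV and 22 in PG, was 4.91 after normalization, with an exact 95% interval of 3.09 to 8.14 that covers counting error only. Without PV replicate 2 the log2 fold change was 1.92 (adjusted p = 0.0153 from the same test), the lowest value when any library was left out. It was 1.31 with the shrunken estimate of DESeq2.

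The sheddase gene adam17a was the most evenly measured. It had 963, 1029 and 914 normalized counts in PV replicates 1, 2 and 3, against 436, 481 and 462 in PG replicates 1, 2 and 3. Libraries of a stage differed little, and the stages were far apart relative to that spread. The means were 969 ± 58.0 in PV and 460 ± 22.6 in PG follicles (SD, n = 3 each). The log2 fold change was 1.07 with a standard error of 0.07 and a 95% interval of 0.92 to 1.23 (edgeR quasi-likelihood test, adjusted p = 6.11e-07). The interval reaches below the log2 fold change of 1 that defines a call. When a change beyond 2-fold was tested for, adam17a was no longer called (edgeR glmTreat, adjusted p = 0.375), whereas egfra and erbb2 were (adjusted p = 0.00131 and 0.0463 from glmTreat).

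The size of the change was compared among the 3 genes by the log2 ratio of their raw counts within each library, which needs no scaling between libraries. The log2 ratio of egfra to adam17a was -2.04, -2.30 and -2.61 in PV replicates 1, 2 and 3, against -3.74, -3.93 and -6.20 in PG replicates 1, 2 and 3. Every PV ratio was higher, by 2.31 on average (exact two-sided permutation p = 0.1, the smallest that 3 against 3 allows), and by 1.52 without PG replicate 3. For erbb2 to adam17a the log2 ratio was -5.00, -4.14 and -5.21 in PV libraries and -6.19, -5.56 and -6.20 in PG libraries, a mean difference of 1.20 (exact permutation p = 0.1). The log2 ratio of egfra to erbb2 was 2.96, 1.84 and 2.60 in PV libraries and 2.45, 1.63 and 0 in PG libraries. These values overlapped, the mean difference of 1.11 had an exact permutation p of 0.2, and it was 0.43 without PG replicate 3. Adjusted over the 3 pairs, the p-values were 0.15, 0.15 and 0.2. Both receptor ratios to adam17a were thus higher in every PV library than in any PG library, while the egfra to erbb2 ratios overlapped. The test showed no difference for any pair, and with a smallest possible p of 0.1 it could not. In PG replicate 3 the ratios rest on 3 raw counts each of egfra and erbb2.

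The levels of the 3 genes were then set beside the follicle cell markers of the same libraries. For each 1000 counts of the 12 follicle cell markers there were 92.4, 82.1 and 70.3 counts of egfra in PV replicates 1, 2 and 3, against 158, 150 and 53.6 in PG replicates 1, 2 and 3. The stages overlapped on this scale through PG replicate 3 alone, whose value rests on 3 raw counts of egfra. PG replicates 1 and 2 lay above every PV library. For erbb2 there were 11.8, 22.8 and 11.4 in PV libraries and 27.4, 47.0 and 53.6 in PG libraries, and every PV value was lower. For adam17a there were between 379 and 430 in PV libraries and between 2123 and 4571 in PG libraries, so that adam17a was far lower in PV per follicle cell marker count. The marker genes, such as the FSH receptor gene fshr and the aromatase gene cyp19a1a, were themselves called higher in PV follicles while oocyte markers were lower or not called, and their part in the result was not tested.

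**Figure D2:**
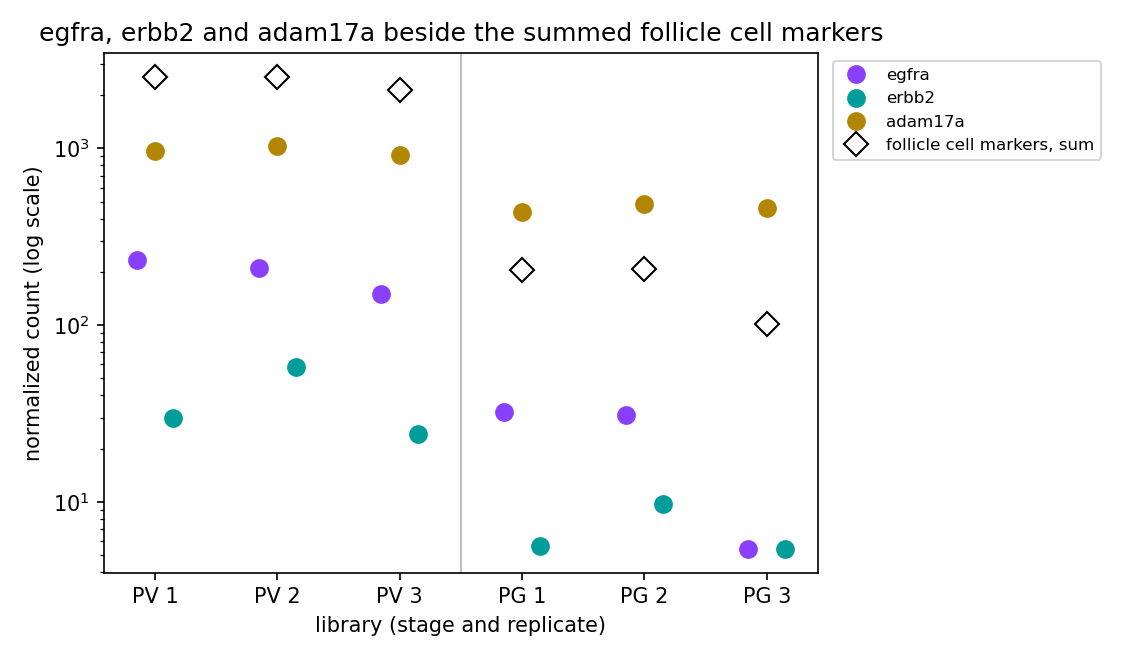
Normalized counts on a log axis of egfra, erbb2 and adam17a (filled points) and the sum of 12 follicle cell marker genes (open diamonds) in each of the 6 libraries. The marker sum lies between 2128 and 2546 in the PV libraries and between 101 and 208 in the PG libraries, and in PG replicate 3 it is low together with egfra but not with adam17a. Each gene is higher in PV on this scale, whereas scaled to the marker sum erbb2 and adam17a are lower in PV. When so scaled, egfra overlaps between the stages through PG replicate 3 alone, where it had 3 raw counts.

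With the scaling on follicle cell markers in the edgeR model, an alternative chosen after seeing the data, the log2 fold changes turned negative, at -0.69 for egfra, -1.38 for erbb2 and -2.88 for adam17a. Several of these markers were known to be higher in PV follicles when they were chosen, which lowers every value on that scale. The median of all tested genes moved to -3.90 on that scale. Relative to that median the changes were 3.21 for egfra, 2.52 for erbb2 and 1.02 for adam17a. Relative to the median under scaling by library totals they were 2.89, 2.32 and 1.04 in the same order of genes. A change of scaling shifts all genes by nearly the same amount, so values relative to the median stay close by construction and are no separate evidence.

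**Figure D3:**
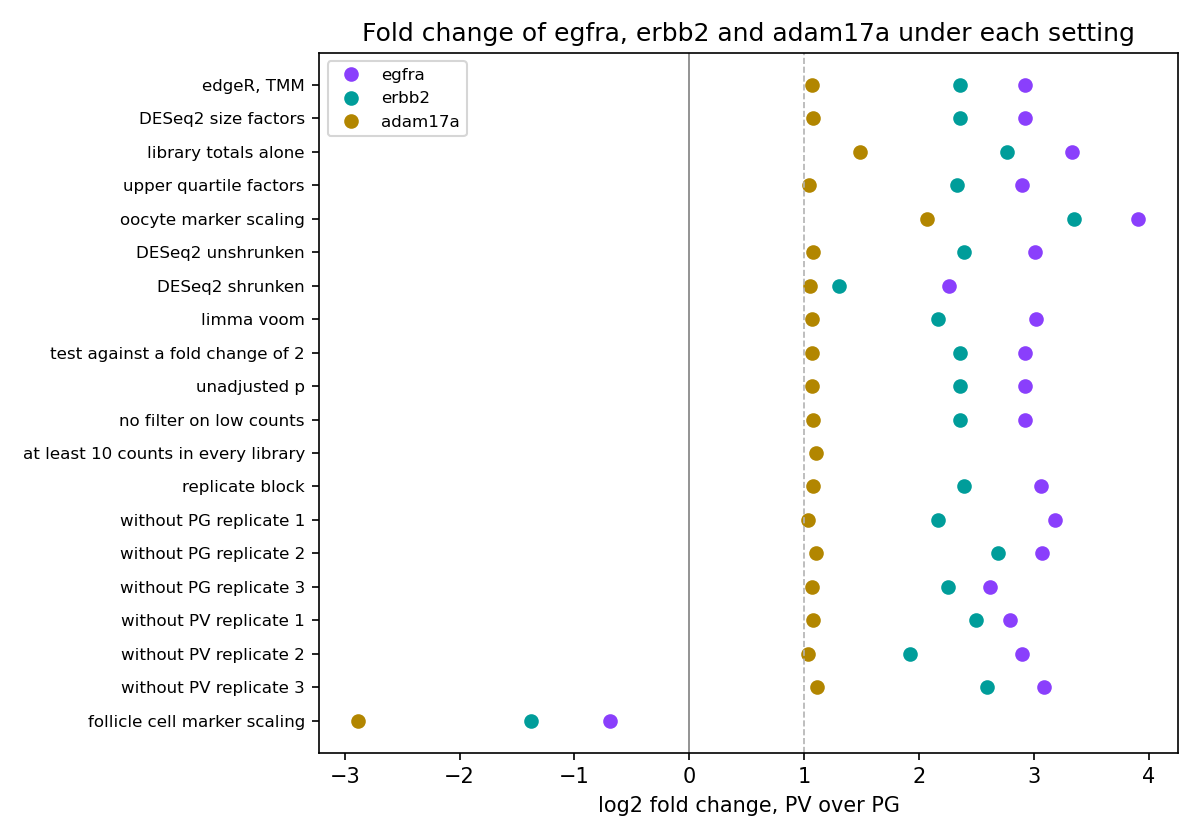
Log2 fold change (PV over PG) of egfra, erbb2 and adam17a under each setting, with the fold-change threshold of 1 as a dashed line. With edgeR and TMM the values are 2.92, 2.36 and 1.07, and they stay above 1 in all settings but the scaling on follicle cell markers, where they are negative. No point is drawn for egfra and erbb2 where 10 counts were required in every library, since PG replicate 3 held 3 counts of each.

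The other genes of the pathway were described with lists arranged by role, 103 genes in all, of which 95 passed the expression filter. Of those tested, 30 were higher in PV follicles by the same rule and 3 were lower, that is 31.6% and 3.16% of them, beside 13.2% and 5.97% of all tested genes. The lists were drawn up with earlier results of these data known. The study had already reported the ErbB and MAPK pathways as enriched among genes higher in PV. The shares are therefore a description and no separate evidence. Without egfra, erbb2 and adam17a the numbers were 27 and 3 of 92, and the median log2 fold change was 0.34. Scaling by library totals gave 39 higher and 2 lower, and scaling by the oocyte markers 70 and 1. Of the 33 calls, 29 were kept when any single library was left out. The exceptions were hrasa, pik3cd, spry2 and shc2, named after their values were seen.

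**Figure D4:**
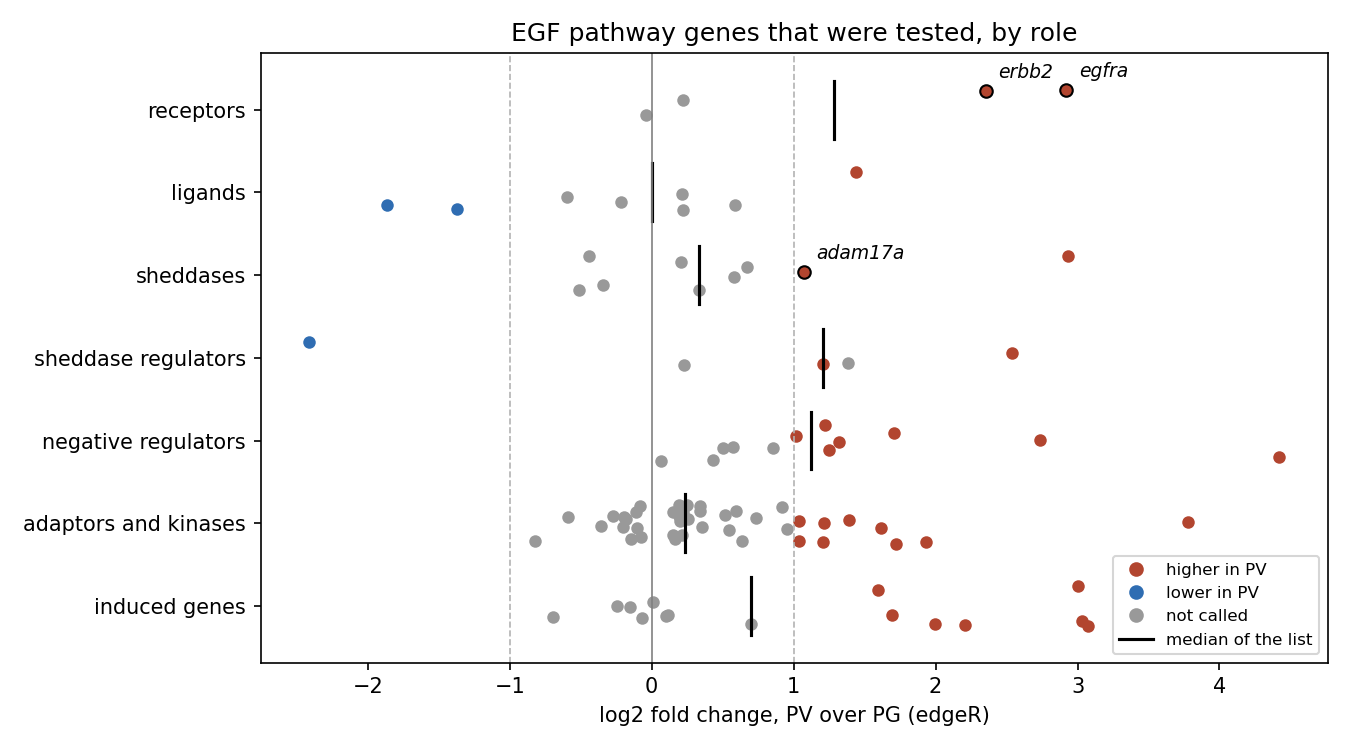
Log2 fold change (PV over PG, edgeR with TMM scaling) of the 95 tested genes of the EGF pathway, 1 point a gene, in rows by role, with the median of each list as a bar and the thresholds of -1 and 1 as dashed lines. Points of egfra, erbb2 and adam17a are outlined. The receptor list has its 2 calls in egfra and erbb2, which were chosen with earlier results of these data known. Calls of lower genes are found among ligands and sheddase regulators only. With the scaling on oocyte markers 70 of these genes would be called higher and 1 lower.

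Of the receptor list, 7 genes had counts and 4 were tested, with 2 called higher and a median log2 fold change of 1.29. The 2 called genes were egfra and erbb2, which the study had already reported as higher in PV in these same data. The count and the median of this list were therefore largely fixed by the choice of genes. The other tested receptors were erbb3b (ENSDARG00000036993) and erbb4b (ENSDARG00000089536). ErbB3 and ErbB4 bind neuregulins, and ErbB3 has little kinase activity of its own in mammals. The gene erbb4b had 384, 391 and 418 normalized counts in PV and 427, 406 and 390 in PG libraries. These overlapped, with a log2 fold change of -0.04 (SE 0.08). For erbb3b the levels were 26.7, 22.7 and 26.1 in PV and 19.0, 23.1 and 23.5 in PG libraries, with a log2 fold change of 0.22 (SE 0.36). Neither was called. The remaining receptor genes were too low to test. The gene annotated ERBB3 (ENSDARG00000006202) had 25 counts over the PV and 58 over the PG libraries, and 2 genes annotated ERBB4 had 34 in PV and 22 in PG (ENSDARG00000063207) and 18 in PV and 0 in PG (ENSDARG00000090408).

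The ligands went in different directions. Of the 10 ligand genes with counts 8 were tested, and 1 was called higher and 2 lower, and the median log2 fold change was 0.00. These calls are 12.5% and 25% of the tested ligands, beside 13.2% and 5.97% of all tested genes. The share called higher was thus near that of all genes. The gene tgfa (ENSDARG00000053939), which encodes the EGF receptor ligand TGFα, had 835, 880 and 743 normalized counts in PV and 306, 295 and 303 in PG libraries. The log2 fold change was 1.44 with a standard error of 0.08 (edgeR quasi-likelihood test, adjusted p = 2.04e-07). The other ligands of the EGF receptor changed less. The log2 fold change was 0.58 (SE 0.20) for egf (ENSDARG00000052739), 0.21 (0.07) for btc (ENSDARG00000098112), which encodes betacellulin, and 0.22 (0.06) for hbegfa (ENSDARG00000075121), which encodes a heparin-binding EGF-like factor. Their adjusted p was 0.0254, 0.0197 and 0.00681 (edgeR quasi-likelihood test), but their fold changes were below the threshold. In hbegfa the counts were 3655, 3652 and 4001 in PV and 3102, 3130 and 3491 in PG libraries after normalization, so that the stages were close. The ligand genes areg (ENSDARG00000076853), with 23 counts over the PV and 24 over the PG libraries, and epgn (ENSDARG00000104992), with 6 and 0, had few counts.

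The called falls were both in neuregulin genes, whose products bind ErbB4. The gene nrg1 (ENSDARG00000104314) had 551, 646 and 643 normalized counts in PV and 1679, 1582 and 1466 in PG libraries, a log2 fold change of -1.37 (SE 0.08, edgeR quasi-likelihood adjusted p = 3.44e-07). For nrg3b (ENSDARG00000089766) the levels were 14.1, 10.1 and 19.1 in PV and 45.8, 58.6 and 57.8 in PG libraries, a log2 fold change of -1.86 (SE 0.34). The call of nrg1 was lost under scaling by library totals and by the oocyte markers, and that of nrg3b under the oocyte markers but not library totals. Of 2 genes annotated NRG2, ENSDARG00000077818 changed by -0.59 on the log2 scale (SE 0.10), and ENSDARG00000086585 was not tested, with 41 counts over the PV and 20 over the PG libraries.

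Of the 9 tested sheddase genes 22.2% were called higher and none lower, beside 13.2% and 5.97% of all tested genes. Besides adam17a, 1 of these 9 genes was called. This was adam15 (ENSDARG00000089213), which encodes another membrane metalloprotease, with 55.7, 36.5 and 29.6 normalized counts in PV and 6.34, 7.11 and 0 in PG libraries. Its log2 fold change was 2.93 with a standard error of 0.60 (edgeR quasi-likelihood test, adjusted p = 0.00157). The median of the sheddase list was 0.33 on the log2 scale. A second gene annotated ADAM17 (ENSDARG00000093093), named after its values were seen, had 47.9, 25.2 and 24.4 normalized counts in PV and 31.0, 20.4 and 10.8 in PG libraries. These overlapped, with a log2 fold change of 0.58 (SE 0.45, edgeR quasi-likelihood adjusted p = 0.283). Reads from sequence it shares with adam17a may have been divided between the pair in the counting. The gene of highest mean count was adam10a (ENSDARG00000053468), which encodes a sheddase of Notch, EGF and betacellulin in mammals. It had 2357, 2529 and 2245 normalized counts in PV and 1603, 1515 and 1319 in PG libraries, a log2 fold change of 0.67 (SE 0.08) that was below the threshold.

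The list of sheddase regulators held partners of ADAM17 and inhibitors of metalloproteases. Of its 5 genes 2 were called higher and 1 lower, beside 13.2% and 5.97% of all tested genes, at a median log2 fold change of 1.20. The gene frmd8 (ENSDARG00000073696) encodes a protein that keeps ADAM17 and its iRhom partner stable at the cell surface in mammals. It had 1458, 1547 and 1393 normalized counts in PV and 670, 638 and 587 in PG libraries, a log2 fold change of 1.20 (SE 0.07). The iRhom genes themselves, both annotated RHBDF1 and named after their values were seen, had log2 fold changes of 0.23 (SE 0.06, ENSDARG00000036541) and 1.38 (SE 0.57, edgeR quasi-likelihood adjusted p = 0.0533, ENSDARG00000017367), and neither was called. The genes timp2a (ENSDARG00000061226) and timp2b (ENSDARG00000075261) encode inhibitors that act mainly on matrix metalloproteases in mammals, where TIMP3 is the inhibitor known for ADAM17, and timp3 was not analysed here. They moved oppositely, with log2 fold changes of 2.54 (SE 0.17) and -2.41 (SE 0.37). For timp2a the levels were 919, 784 and 735 in PV and 172, 137 and 88.4 in PG libraries. For timp2b they were 20.4, 11.3 and 8.70 in PV and 86.6, 78.2 and 52.3 in PG libraries.

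Of 12 tested negative regulators of receptor signaling, 7 were called higher and none lower by edgeR, beside 13.2% and 5.97% of all tested genes. The median log2 fold change was 1.12. By the adjusted p alone, with no threshold on size, 11 of the 12 passed with a positive change, and 32.7% of all tested genes did (edgeR quasi-likelihood test). The called genes were lrig2 and lrig3, and spry2, spry4, spred1, spred2a and spred2b, whose products restrain the MAPK cascade. The LRIG protein known to promote turnover of the receptors is LRIG1, and lrig1 was not called (log2 fold change 0.50, SE 0.06). Whether lrig2 and lrig3 restrain the receptors in follicles was not tested. All the called genes but spred2a, and lrig1, were named after their values were seen. The largest fitted rise was in spred2a (ENSDARG00000052435), which had 49 counts in PV and 2 in PG libraries, a ratio of 23.6 after normalization with an exact 95% interval of 6.20 to 200.4 for counting error only. The gene spry4 (ENSDARG00000068732) had 371, 413 and 367 normalized counts in PV and 52.8, 51.5 and 74.0 in PG libraries, a log2 fold change of 2.74 (SE 0.14). The gene of highest mean count, cbl (ENSDARG00000009958), encodes a ubiquitin ligase of activated receptors, and its log2 fold change was 0.43 (SE 0.09). The call of spry2, at a log2 fold change of 1.02, was lost without PG replicate 3 or PV replicate 1 and with upper quartile scaling.

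Among the adaptors and kinases that carry the signal inside the cell, 9 of 42 were called higher and none lower by edgeR. That is 21.4% called higher, beside 13.2% of all tested genes. The median log2 fold change was 0.24. By the adjusted p alone, 24 passed with a positive and 6 with a negative change, beside 32.7% and 29.9% of all tested genes (edgeR quasi-likelihood test). The called genes included the adaptors shc1 (ENSDARG00000075437) and grb2a (ENSDARG00000105276), with log2 fold changes of 1.62 (SE 0.08) and 1.93 (SE 0.16), and the regulatory subunit gene of PI3K pik3r1 (ENSDARG00000038524), with 1.22 (SE 0.06). These were named after their values were seen. The largest fitted rise was in the phosphatase gene ptpn11b (ENSDARG00000012340), with 61 counts in PV and 4 in PG libraries. Its 4 PG counts were all in replicate 1, and the ratio of the stages was 14.7 after normalization with an exact 95% interval of 5.46 to 55.7 that covers counting error only. For plcg1 (ENSDARG00000038442), the phospholipase Cγ gene and the highest of the list, the levels were 5436, 5564 and 5232 in PV and 4718, 4565 and 4671 in PG libraries, with a log2 fold change of 0.22 (SE 0.04). The calls of hrasa and pik3cd were each lost in 2 and that of shc2 in 4 of the 6 fits that left out a library. For hrasa these were the fits without PG replicate 3 and PV replicate 1, for pik3cd those without PG replicate 1 and PV replicate 1, and for shc2 those without PG replicate 2 and each PV library. The call of shc2 was also lost with the replicate number as a block and with DESeq2.

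Of 15 genes that are induced by receptor tyrosine kinase signaling in many cell types, 7 were called higher and none lower by edgeR. The shares over all tested genes were 13.2% and 5.97%. The median log2 fold change was 0.70, and 8 genes were not called. Among these were etv4, etv5b, ier2b, mycb and both genes annotated PTGS2, named after their values were seen. Their log2 fold changes lay between -0.69 and 0.12. The largest rise was in dusp6 (ENSDARG00000070914), which encodes a phosphatase of ERK, with 912, 804 and 768 normalized counts in PV and 93.6, 94.2 and 112 in PG libraries. Its log2 fold change was 3.08 with a standard error of 0.10 (edgeR quasi-likelihood test, adjusted p = 7.73e-09). The immediate early genes egr1 (ENSDARG00000037421) and fosab (ENSDARG00000031683), named after their values were seen, followed. For egr1 the levels were 1386, 1314 and 1286 in PV and 182, 162 and 130.0 in PG libraries, and for fosab 3014, 2504 and 2528 in PV and 338, 372 and 278 in PG libraries. The gene of highest mean count, etv5a (ENSDARG00000069763), a transcription factor gene of the ETS family, had a value of -0.07 on the log2 scale (SE 0.04). Many signals induce these genes, and the lists do not tell the EGF receptors from other inputs. Follicles of both stages were pipetted, sieved and centrifuged before RNA was extracted. The study kept this work short to limit changes of expression outside the fish. The part of handling in these values was not tested.

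For each of the 3 genes the nearest patterns were sought among the 12226 tested genes whose mean normalized count reached 50, as the root mean square difference of log2 CPM centred on the mean of the gene over the 6 libraries. The nearest genes to egfra were nedd9 (ENSDARG00000089878), which encodes a scaffold protein of focal adhesions, the actin-bundling protein gene pls3 (ENSDARG00000037655) and the type IV collagen gene col4a5 (ENSDARG00000052063), at differences of 0.157, 0.194 and 0.246. For erbb2 they were si:dkeyp-9d4.3 (ENSDARG00000100166), the transcription factor gene atf5b (ENSDARG00000077785) and the scaffold protein gene bcar1 (ENSDARG00000056525), at 0.24, 0.255 and 0.274. For adam17a they were si:dkey-102f14.5 (ENSDARG00000041560), the cell cycle transcription factor gene e2f8 (ENSDARG00000057323) and edem3 (ENSDARG00000074129), whose product trims sugars of misfolded glycoproteins, at 0.0368, 0.0381 and 0.0415. The differences were smallest for adam17a, the gene with the most counts and the least spread between replicates.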

How the data were processed

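Per the labels and the methods, the authors aligned reads to GRCz10 with TopHat2 and obtained counts per Ensembl gene with StringTie and prepDE, which converts coverage into whole read counts. All exact intervals in the text treat such counts as independent reads and may be too narrow. The deposited normalized counts are a signal, each count divided by 1 DESeq2 size factor per library, and matched the raw counts over these factors within 5e-15. FastQC 0.11.5 is in the submitters' processing notes. The labels name a TruSeq kit and the methods a directional NEBNext kit, and the strand setting of the counting is not given in the sources used here. No GRCz10 annotation was used, so no coordinates or sequences are given.

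The raw counts were filtered with filterByExpr (minimum count 10, minimum total 15), scaled by TMM and tested with edgeR 4.0.16 (limma 3.58.1, R 4.3.3) in a model of stage. The p-values were adjusted by the Benjamini-Hochberg method over 15899 genes, and DESeq2 1.42.0 was an alternative. The fit was tested on simulated data. The 3 genes and the role and marker lists were chosen with earlier results of these data known. Symbols were taken from the study's gene names and then a name table of Ensembl genes, and where these give no paralog letter the identifier is printed. Named genes were the 3 genes, all receptors and ligands, and in each other list the most abundant gene and the largest called rise and fall, with the 3 nearest patterns to each of the 3 genes. Genes outside this rule were named after their values were seen. The text says so for genes of the role lists, but not for single marker genes. Ratios used a pseudocount of 0.5 and exact permutation tests in R, and exact binomial intervals were computed in scipy 1.17.1. Tables and figures used numpy 2.4.6, pandas 2.3.3 and matplotlib 3.10.9. Each library came from pooled fish, and whether equal replicate numbers mark the same fish is not stated, so p-values measure the spread between these samples.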

Additional observations from a re-analysis of the deposited data

How the results depend on the processing

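The alternatives were other scalings, DESeq2 with unshrunken and shrunken fold changes, limma voom, a test for changes beyond 2-fold, unadjusted p-values, other filters, the replicate number as a block and the omission of each library. The calls of egfra and erbb2 were kept in all of them except the scaling on follicle cell markers, chosen after seeing the data, where the log2 fold changes were -0.69 for egfra, -1.38 for erbb2 and -2.88 for adam17a. With 10 counts required in every library egfra and erbb2 could not be tested. Under the scaling on follicle cell markers adam17a was called lower (edgeR quasi-likelihood adjusted p = 1.04e-10), among 15335 of 15899 tested genes called lower. With that scaling egfra and erbb2 were not called (adjusted p = 0.127 and 0.0513 from the same test). In the test for changes beyond 2-fold the call of adam17a was lost (1.07 on the log2 scale). Omission of single libraries gave log2 fold changes from 2.62 to 3.19 for egfra, from 1.92 to 2.69 for erbb2 and from 1.03 to 1.11 for adam17a. Ratios within libraries kept their sign, from 0.43 to 1.65 for egfra to erbb2, from 1.52 to 2.75 for egfra to adam17a and from 0.88 to 1.42 for erbb2 to adam17a.

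Over all tested genes 2105 were called higher and 949 lower. These numbers were 3664 and 415 with library totals, 7999 and 154 with the oocyte markers, 1025 and 410 in the test for changes beyond 2-fold, and 1223 and 614 with 10 counts in every library. For the EGF pathway the oocyte markers gave 70 higher and 1 lower, and 10 counts in every library gave 1 lower. With the replicate block, 1983 genes were higher and 860 lower, and the log2 fold changes were 3.06 for egfra, 2.39 for erbb2 and 1.08 for adam17a. The deviations of same-numbered PV and PG libraries had correlations across 12229 genes of -0.0149, -0.00508 and 0.023, which does not show that equal numbers mark the same fish, nor that they do not. In the EGF pathway the block ended the call of shc2. Without PG replicate 3, 2096 genes were higher and 975 lower, with 28 and 4 in the EGF pathway. Depth limits erbb2 most, with 3 to 11 counts in a PG library.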
